A study of Capra hircus with 8 samples.

Results

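The TGF-beta ligands TGFB1, TGFB2 and TGFB3 and the receptors TGFBR1, TGFBR2 and TGFBR3 were followed in goat skin. The genes were chosen by symbol, and all 6 were found among the 18815 genes of the count table and passed the filter on low counts that left 14085 genes for testing. The second deposited table places TGFB1 on chromosome 18, TGFB2 on 16, TGFB3 on 10, TGFBR1 on 8, TGFBR2 on 22 and TGFBR3 on 3, and positions are not used here because the genome build is not named. Skin of cashmere goats (Capra hircus), a breed type kept for its fine undercoat, was set against skin of milk goats, each at months 3, 6, 9 and 12. Polyadenylated RNA was sequenced from 1 library per breed and month, 8 libraries in all, with no treatment and no genetic change named for either breed. Each month is entered as an age in the labels, whereas the design text names months only, so months of life and months of the year cannot be told apart. The protocol text mentions embryos although the tissue is given as skin. How many animals went into a library is not stated, so part of any spread between libraries may be technical. With 1 library per breed and month, no p-value measures spread between replicates. In the fit of month and breed, the error is how far the breed difference changes from month to month.

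TGF-beta ligands are secreted as latent complexes held in the matrix. Once freed, a ligand binds TGFBR2, a kinase that then activates TGFBR1, and TGFBR1 passes the signal to SMAD proteins. TGFBR3 (betaglycan) has no kinase of its own and presents ligand, above all TGFB2, to TGFBR2. In mouse skin TGFB1 is known as an inducer of catagen, the regression phase of the hair follicle, while TGFB2 has been tied to both the start of hair growth and regression.

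The libraries differed in depth and makeup in ways that touch what follows. Cashmere libraries held 7480053 to 8718429 reads and milk libraries 11333734 to 13899750. Epidermal markers were detected in all 8 libraries, with summed levels of 13530 to 20191 counts per 1000000 reads (CPM) in cashmere skin and 19819 to 39390 CPM in milk skin. The 8 hair shaft and matrix markers summed to 186, 854, 1706 and 89.0 CPM in milk skin at months 3, 6, 9 and 12, low at both months 3 and 12, against 747 to 1858 CPM in cashmere skin. The milk month 12 library also had the highest epidermal sum of the 8. Inner root sheath markers summed to 173702 CPM in the milk month 9 library, the highest of the 8, and that library had the lowest scaling factor (0.783). Results are given without single libraries where leaving one out changes a call.

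Per unit of transcript length, the co-receptor TGFBR3 was the most abundant of the 6 and the ligand TGFB3 the least. Over the 8 libraries TGFBR3 averaged 18.7 ± 9.40 FPKM (fragments per kilobase of transcript and 1000000 mapped reads; SD, n = 8), TGFBR2 13.0 ± 5.29, TGFB2 9.20 ± 1.62, TGFB1 6.95 ± 1.80, TGFBR1 4.17 ± 1.22 and TGFB3 2.35 ± 0.592. TGFB1, TGFBR1 and TGFB3 held ranks 4, 5 and 6 in every library. TGFBR3 was above TGFBR2 in 8 of 8 libraries, TGFB2 above TGFB1 in 8 of 8, and so on down the order, with a single exception: TGFBR2 was above TGFB2 in 5 of 8, and their difference of 3.79 ± 5.88 FPKM (SD, n = 8) was smaller than its spread. TGFB2 was the largest of the 3 ligands in every library, with 43.9% to 59.1% of their summed FPKM. TGFBR3 and TGFBR2 had the widest spread of the 6. The summed receptor FPKM divided by that of the ligands was 2.89, 1.42, 1.37 and 1.56 in cashmere skin at months 3, 6, 9 and 12, against 2.92, 2.08, 0.882 and 2.57 in milk skin. The milk month 9 library was the only one of the 8 in which the ligands together exceeded the receptors on this scale.

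**Figure D1:**
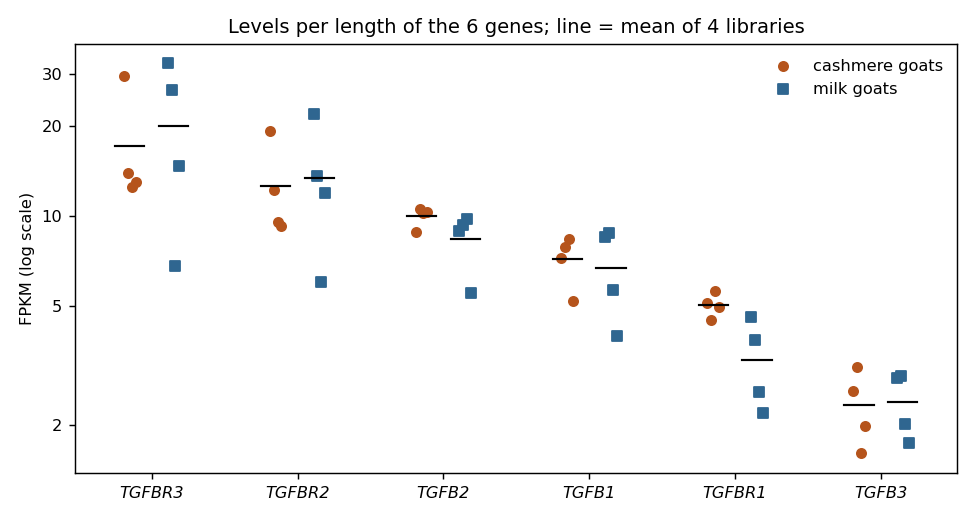
FPKM (log scale) of the 6 genes, ordered by mean, in cashmere and milk skin, with 1 point per library and a line at the mean of 4 libraries. TGFBR3 and TGFBR2 spread most and overlap each other and TGFB2, while TGFB3 is the lowest of the 6.

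TGFB1, the ligand best known as a regression signal in mouse follicles, had 33.5, 39.2, 41.5 and 26.4 CPM in cashmere skin at months 3, 6, 9 and 12, against 43.7, 45.5, 38.3 and 23.2 CPM in milk skin. Month 12 was the lowest in both breeds, and the ranges of the breeds overlapped. TGFB2, a ligand that needs TGFBR3 for efficient binding, had 62.2, 80.2, 77.5 and 80.4 CPM in cashmere skin against 69.6, 73.8, 101 and 49.4 CPM in milk skin. Cashmere skin was lowest at month 3 and near level afterwards, while milk skin was highest at month 9 and lowest at month 12. TGFB3, the remaining isoform, had 15.3, 19.8, 10.1 and 12.9 CPM in cashmere skin against 18.7, 19.2, 17.4 and 12.9 CPM in milk skin. The counts behind these were 88 to 165 reads in cashmere libraries and 147 to 250 in milk libraries, the fewest of the 6 genes, and the breeds overlapped.

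TGFBR1, the signalling type I receptor, had 45.2, 42.6, 53.4 and 48.4 CPM in cashmere skin against 45.1, 38.0, 33.4 and 24.5 CPM in milk skin. Milk skin was lower at each later month, cashmere skin was not, and month 3 was equal between the breeds (log2 ratio 0.000936). TGFBR2, the type II receptor that binds ligand first, had 134, 91.6, 70.9 and 71.2 CPM in cashmere skin against 169, 105.5, 61.3 and 105.1 CPM in milk skin. Both month 3 libraries lay above the other 6, a pattern that 7.02% of all genes tested shared. Milk skin was lowest at month 9, and cashmere skin was equal at months 9 and 12, with month 12 the lower on FPKM (9.28 against 9.54). TGFBR3 had 283, 144, 128 and 137 CPM in cashmere skin against 346, 283, 95.3 and 179 CPM in milk skin. Month 3 was again the highest in both breeds, as for 13.5% of all genes, and month 9 the lowest, as for 10.1%, but milk month 6 equalled cashmere month 3.

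**Figure D2:**
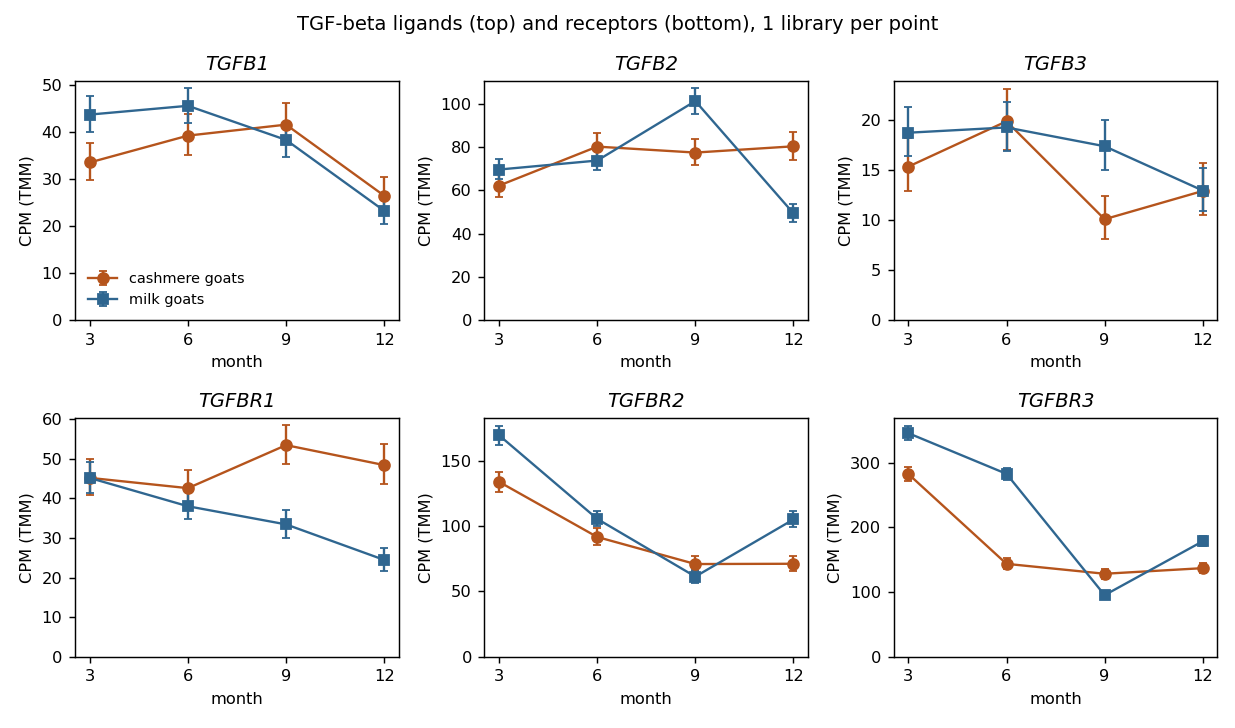
CPM of the 3 ligands (top) and 3 receptors (bottom) at months 3, 6, 9 and 12, with 1 library per point and 1 line per breed. TGFBR2 and TGFBR3 are highest at month 3 in both breeds and lowest at month 9 in milk skin, and the TGFBR1 lines part after month 3.

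The month 9 against month 3 comparison sets these 2 receptors at a low month beside their highest, and the pair of months was picked with their levels known. TGFBR2 was at 70.9 CPM in cashmere and 61.3 CPM in milk skin at month 9, against 134 and 169 CPM at month 3, a log2 fold change of -1.18 ± 0.22 (SE). Within 1 breed the log2 ratio was -0.92 in cashmere skin, with an exact 95% interval of -1.06 to -0.77, and -1.47 (-1.59 to -1.34) in milk skin, both for counting error only. TGFBR3 was at 128 CPM in cashmere and 95.3 CPM in milk skin at month 9, against 283 and 346 CPM at month 3, a log2 fold change of -1.45 ± 0.32 (SE). Its ratios were -1.14 (-1.24 to -1.04) in cashmere and -1.86 (-1.96 to -1.76) in milk skin, so that it was at least 2-fold lower at month 9 in both breeds, as 2.76% of all genes were. The other 4 genes lay much closer to 0 in this contrast, with log2 fold changes of 0.052 for TGFB1, 0.44 for TGFB2, -0.33 for TGFB3 and -0.11 for TGFBR1. TGFB3 was also lower at month 9 in both breeds, which makes 3 of the 6, against 35.1% of all genes. In milk skin its log2 ratio of -0.11 was within counting error (95% interval -0.39 to 0.18).

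None of these differences passed the threshold of 0.05 after adjustment over all genes. By edgeR's quasi-likelihood test with Benjamini-Hochberg adjustment, TGFBR2 had an adjusted p of 0.108 and TGFBR3 one of 0.112. No gene of the 14085 was called (0.0%), the smallest adjusted p was 0.108, and 3329 genes (23.6%) had an unadjusted p under 0.05. Of all genes tested, 11.0% were lower at month 9 with an unadjusted p under 0.05, as were 2 of the 6 genes here. The edgeR test gave TGFBR2 an unadjusted p of 0.000948 and TGFBR3 one of 0.00242. TGFBR2 ranked 105th and TGFBR3 304th of all genes by that p. The pair of months was picked with the levels of these 2 genes known, and not for the other genes. Their p-values, ranks and calls in this contrast are therefore description only. DESeq2 called 1107 genes, these 2 among them, with adjusted p of 0.000753 for TGFBR2 and 0.00133 for TGFBR3, while limma on log2 FPKM called none. Over all alternatives run the adjusted p ranged from 0.000753 to 0.573 for TGFBR2 and from 0.00133 to 0.573 for TGFBR3, and the log2 fold change stayed negative for both. Without the cashmere month 12 library edgeR called 2027 genes, with adjusted p of 0.0149 for TGFBR2 and 0.0288 for TGFBR3. Without the milk month 12 library it called 1924 genes, with adjusted p of 0.0170 for TGFBR2 and 0.0287 for TGFBR3.

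**Figure D3:**
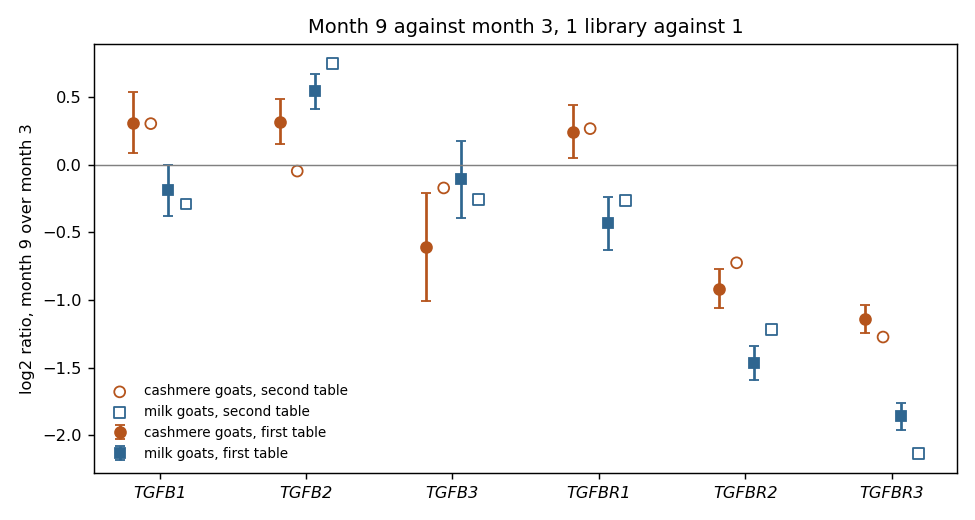
Log2 ratio of month 9 over month 3 in cashmere and milk skin for each of the 6 genes, 1 library against 1; filled points with 95% counting intervals are the count table used throughout, open points a second deposited count table. TGFBR2 and TGFBR3 lie farthest below 0 of the 6 in both breeds and both tables.

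Endothelial genes moved with these 2 receptors. The 10 endothelial markers, all detected in all 8 libraries, summed to 669, 452, 317 and 269 CPM in cashmere skin at months 3, 6, 9 and 12, against 843, 527, 273 and 595 CPM in milk skin. At month 9 against month 3 all 10 had a negative log2 fold change and 9 an unadjusted p under 0.05, a mark that 11.0% of all genes reached in that direction, with a median of -1.27. The median over all genes in this contrast was -0.00070. KDR, a receptor for vascular endothelial growth factor, had a log2 fold change of -1.49, and PECAM1, an adhesion protein of endothelial junctions, one of -1.45, both with adjusted p above the threshold in the edgeR test (0.108 and 0.117). TGFBR2 itself varied 2.76-fold between its highest and lowest library, and 1.50-fold when divided by the endothelial sum. TGFBR3 varied 3.63-fold, and 1.79-fold per endothelial sum. Of the 12 marker lists examined, the endothelial one left the smallest variation for both, a choice made after these values were seen. It was not alone in leaving less. Macrophage and leukocyte markers left 1.93-fold for TGFBR2 and 2.14-fold for TGFBR3, and Schwann cell markers 2.03-fold and 2.34-fold. Other lists left more than the undivided values, such as hair shaft and matrix markers with 32.8-fold and 35.9-fold. In bulk skin, fewer cells of a type and less RNA per cell cannot be told apart. Other marker lists also differed at month 9 against month 3. Fibroblast markers were lower in 10 of 10 (4 at an unadjusted p under 0.05, median log2 fold change -0.84) and smooth muscle and pericyte markers in 10 of 10 (6 at that p, median -0.70). Of 6 Schwann cell markers, 5 were lower and 1 higher at that p (median -1.46), and 8 of 9 macrophage and leukocyte markers were negative (1 at that p, median -0.63). Hair shaft markers were higher in 8 of 8, all at that p (median 2.37), and inner root sheath markers in 6 of 6, 3 of them at that p (median 2.15). The part of these cell types in the receptor values was not tested.

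**Figure D4:**
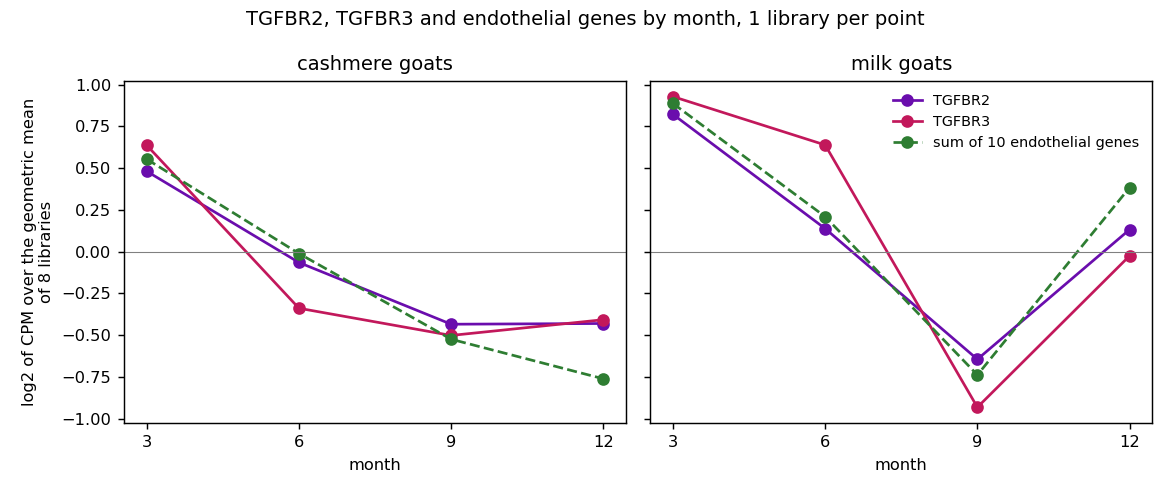
Log2 of CPM over the geometric mean of the 8 libraries, by month, for TGFBR2, TGFBR3 and the sum of the 10 endothelial markers (dashed), in cashmere skin (left) and milk skin (right), 1 library per point. All 3 are highest at month 3 in both breeds and lowest at month 9 in milk skin, while in cashmere skin the endothelial sum is lowest at month 12.

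At month 12 against month 6, TGFB1 had the largest difference of the 6 in the first table. In the second deposited table TGFB3 had the largest (log2 fold change -0.73, against -0.63 for TGFB1). In the first, TGFB1 was at 26.4 CPM in cashmere and 23.2 CPM in milk skin at month 12. At month 6 it was at 39.2 and 45.5 CPM, a log2 fold change of -0.77 ± 0.20 (SE). The edgeR quasi-likelihood test gave an unadjusted p of 0.00601 and a Benjamini-Hochberg adjusted p of 0.545. No gene was called in this contrast (0.0%), 1071 (7.6%) had an unadjusted p under 0.05, and DESeq2 called 94, none of the 6 among them. Without the cashmere month 12 library edgeR called 452 genes, again none of the 6. Of all genes, 3.6% were lower with an unadjusted p under 0.05, as was 1 of the 6 here. Month 12 was the lowest month in both breeds for 5.12% of genes and, of the 6, for TGFB1. Month 12 was below month 6 in both breeds for 4 of the 6 (TGFB1, TGFB3, TGFBR3 and TGFBR2), against 24.9% of all genes, and by at least 2-fold for none, against 1.05%. TGFBR2 in milk skin and TGFBR3 in cashmere skin were within counting error, with log2 ratios of -0.0056 and -0.069. In the second deposited table both were higher at month 12 (0.79 and 0.086). Fibroblast markers had a median log2 fold change of -1.07 in the same contrast, with 8 of 10 lower at an unadjusted p under 0.05, and their part in the TGFB1 value was not tested.

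Across all 4 months together, edgeR's quasi-likelihood test of the month effect called no gene (0.0%), while 13.4% of genes had an unadjusted p under 0.05. So did 3 of the 6 in the first table. In the second deposited table the edgeR test gave an unadjusted p of 0.00295 for TGFBR3, 0.110 for TGFBR2 and 0.132 for TGFB1. In the first table the unadjusted p of that edgeR test was 0.00502 for TGFBR2, 0.0115 for TGFBR3 and 0.0250 for TGFB1. The adjusted p of the edgeR test there was 0.324, 0.331 and 0.351 in the same order. Without the cashmere month 12 library 1180 genes were called, TGFBR2 among them with an adjusted p of 0.0372 by the edgeR test, and without the milk month 12 library 109, none of the 6 among them.

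The breed comparison asks whether cashmere skin differed from milk skin once month is taken into account. TGFB1 averaged 35.2 ± 6.73 CPM in cashmere and 37.7 ± 10.1 CPM in milk skin (SD over the 4 months), a log2 fold change of -0.077 ± 0.14 (SE). TGFB2 averaged 75.1 ± 8.67 CPM in cashmere and 73.5 ± 21.4 CPM in milk skin, a log2 fold change of 0.066 ± 0.19. Neither ligand kept one direction, each being higher in cashmere skin in 2 of 4 months. TGFB3 averaged 14.5 ± 4.14 CPM in cashmere and 17.1 ± 2.86 CPM in milk skin, with a log2 fold change of -0.25 ± 0.19. TGFBR2 averaged 91.9 ± 29.6 and 110.3 ± 44.5 CPM in cashmere and milk skin, with a log2 fold change of -0.23 ± 0.16. TGFBR3 averaged 173 ± 73.4 and 226 ± 111 CPM in cashmere and milk skin, with a log2 fold change of -0.31 ± 0.23. These 3 genes were each higher in cashmere skin in 1 of 4 months on CPM. On FPKM TGFB3 was higher in cashmere skin in 2 of 4 months.

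TGFBR1 was the exception, at 47.4 ± 4.68 CPM in cashmere and 35.3 ± 8.66 CPM in milk skin and a log2 fold change of 0.45 ± 0.18. Its log2 ratio was 0.000936 at month 3 (exact 95% interval -0.19 to 0.19), 0.16 at month 6 (-0.037 to 0.36), 0.68 at month 9 (0.48 to 0.88) and 0.98 at month 12 (0.76 to 1.21), for counting error only. The intervals of months 3 and 6 span 0. Its unadjusted p was 0.0411 and its adjusted p 0.170 by edgeR's quasi-likelihood test, so that 0 of the 6 genes passed, against 675 of all genes (4.79%). That background rests on every library of months 3, 6 and 9: without any one of them at most 4 genes were called. At an unadjusted p under 0.05 the counts were 1 of 6, against 26.9% of all genes, and neither DESeq2 nor limma called any of the 6. In none of the 6 genes did the 4 cashmere and 4 milk libraries separate without overlap, while 14.5% of all genes separated in this way. Nor was any of the 6 at least 2-fold apart on these CPM between the breeds within a month. The shares of all genes that were so were 7.82%, 6.14%, 12.5% and 21.7% at months 3, 6, 9 and 12. On FPKM TGFBR1 passed 2-fold, with log2 ratios of 1.13 at month 9 and 1.18 at month 12. In the second deposited count table TGFBR2 passed it at month 12 (-1.60).

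**Figure D5:**
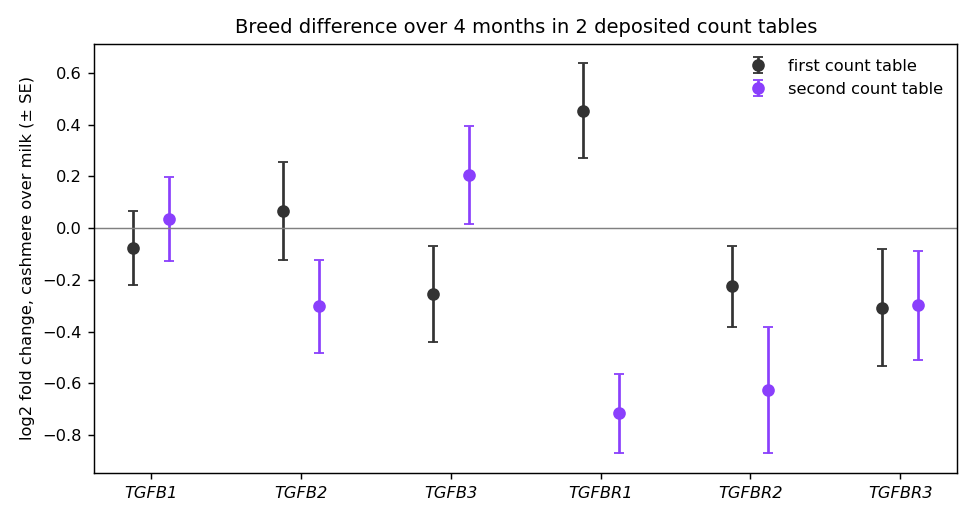
Log2 fold change of cashmere over milk skin for each gene in the 2 deposited count tables, with bars for the SE of each fit on 8 libraries. TGFBR1 lies above 0 in the first table and below 0 in the second, while TGFBR3 is at about -0.30 in both.

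A second deposited table counts the same 8 libraries on another gene set and gave TGFBR1 the opposite direction. In it TGFBR1 had 24.1, 27.2, 28.9 and 33.5 CPM in cashmere skin against 48.1, 38.8, 40.0 and 61.7 CPM in milk skin. The breeds did not overlap for TGFBR1 there, but the share of all genes without overlap was not counted in the second table. Its log2 fold change there was -0.72 ± 0.15 (SE), with an adjusted p of 0.0365 by edgeR's quasi-likelihood test, in a table in which 7.45% of genes were called, and 4.48% were called lower. The values of the tables were 1.17 log2 units apart, a distance that 1.37% of 9898 shared genes reached or passed. Reads differed unevenly by library: the second table held 0.887 to 1.31 times the TGFBR1 reads of the first in cashmere libraries and 1.93 to 4.47 times in milk libraries. The 4.47 belongs to milk month 12, and the remaining milk libraries had 1.93 to 2.30. For all reads these ratios were 1.64 to 1.87 and 1.85 to 2.01. Opposite signs of the breed difference between the tables were found in 24.2% of the shared genes, and in none of the 250 called in both. No direction of TGFBR1 between the breeds is therefore given by these data.

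The second table also moved other values of these genes. TGFB3 was higher in cashmere skin in 4 of 4 months there, with a breed log2 fold change of 0.21, against -0.25 in the first table. The share of all genes higher in each month was not counted. For TGFBR2 the breed log2 fold change was -0.63 in the second table, against -0.23 in the first. In the second table its unadjusted p was 0.0332 and its adjusted p 0.137 by the edgeR test. TGFB2 in milk skin had 34.3, 40.2, 57.6 and 58.0 CPM there at months 3, 6, 9 and 12, so that month 12 was its highest month and not its lowest. TGFBR2 had 61.0, 43.4, 36.9 and 33.6 CPM in cashmere skin against 85.5, 58.8, 36.8 and 102 CPM in milk skin, which placed milk month 12 above milk month 3. In that library the second table held 2.08 times the TGFB2 reads of the first, against 1.01 to 1.09 in the remaining milk libraries. For TGFBR2 it was 1.72 against 1.03 to 1.15. TGFBR3 kept month 3 as its highest and month 9 as its lowest month in both breeds, with 110.4, 56.8, 45.7 and 60.2 CPM in cashmere skin against 155, 108, 35.3 and 66.2 CPM in milk skin. At month 9 against month 3 the log2 fold changes in that table were -0.94 for TGFBR2 and -1.67 for TGFBR3, with adjusted p of 0.189 and 0.123 by the edgeR test. Both had an unadjusted p under 0.05, as did 9.32% of genes in the lower direction there, in a pair of months picked with their levels known.

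Whether the course over the months differed between the breeds was asked in part, in a model of a 12-month cycle. It covers breed differences in month 12 against 6 and in month 9 against 3. A breed difference of months 3 and 9 against 6 and 12 falls into its residual and was not tested. The cycle form presumes months of the year, which the labels do not settle. By edgeR's quasi-likelihood test the cycle model called no gene (0.0%) and none of the 6. At an unadjusted p under 0.05 it held 6.42% of all genes and none of the 6. With 1 library left out this model called 38 to 501 genes and still none of the 6. Months 6 and 9 against months 3 and 12, a split made with earlier results known, gave 0 calls in cashmere skin (0.0%), with 2.69% of genes at an unadjusted p under 0.05, and 188 in milk skin (1.33%), all higher at months 6 and 9, with 12.2% at an unadjusted p under 0.05. Without the milk month 12 library no gene was called in milk skin, and without the milk month 9 library 42 were. None of the 6 was called or had an unadjusted p under 0.05 in either breed in the first table. TGFB2 in milk skin came nearest there, with 73.8 and 101 CPM at months 6 and 9, against 69.6 and 49.4 CPM at months 3 and 12. Its log2 fold change was 0.56 ± 0.25 (SE), with an unadjusted p of 0.0537 and an adjusted p of 0.421 by the edgeR test. In the second table TGFB2 stood at 0.084 in this contrast, and TGFBR2 was nearest at -0.97, with an unadjusted p of 0.0130 and an adjusted p of 0.243 by the edgeR test. The difference of this contrast between the breeds was called for no gene (0.0%), with 3.39% of genes at an unadjusted p under 0.05.

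Genes upstream and downstream of the receptors were read from 6 lists. These held 28, 20, 11, 14, 19 and 9 tested genes in the order given below, and some genes were in more than 1. Over all of them the breed comparison had 1 call in each direction, both in the list of TGF-beta target genes. Among 28 tested targets, CTGF, a matrix-associated protein, was higher in cashmere skin and TIMP1, an inhibitor of matrix metalloproteinases, was lower, and 4.79% of all genes were called. CTGF had 144, 168, 174 and 190 CPM in cashmere skin against 103, 98.2, 81.9 and 112 CPM in milk skin, with a log2 fold change of 0.78 ± 0.14 and an adjusted p of 0.0371 by the edgeR test. TIMP1 had 63.5, 88.6, 80.7 and 73.9 CPM in cashmere skin against 119.7, 139, 112 and 157 CPM in milk skin, with a log2 fold change of -0.78 ± 0.15 and an adjusted p of 0.0373. Neither gene overlapped between the breeds, as was so for 14.5% of all genes, but both calls were lost when any one of the month 3, 6 or 9 libraries was left out. TIMP1 also missed the threshold with library totals (adjusted p = 0.0709, edgeR) and with limma on log2 FPKM (0.0687 and 0.110). Over all alternatives the adjusted p ran from 0.000153 to 0.154 for CTGF and from 0.000153 to 0.141 for TIMP1. The median log2 fold change of the target list was 0.044, and that of all genes 0.028.

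The other lists had no call between the breeds, and their 2 smallest p-values are given as values. For the 20 genes of latency and activation these were LTBP2, a matrix protein of the latent TGF-beta binding family, at -0.61 (adjusted p = 0.0706 by edgeR) and FURIN, the protease that cuts the ligand precursor, at 0.40 (0.0960). Among 11 co-receptors and receptor-level modulators, BGN, a small matrix proteoglycan, stood at 0.96 (0.0618) and CD109, a membrane-anchored co-receptor that dampens the signal, at -0.54 (0.0955). For 14 SMADs and their inhibitors, USP15, a deubiquitinase that acts on the receptor complex, stood at 0.37 (0.156) and the inhibitory SMAD7 at 0.49 (0.174). Among 19 other regulators of follicle regression, the neurotrophin receptors NTRK3 and NTRK2 stood at -0.83 (0.0835) and -0.67 (0.130). Among 9 activin relatives, INHBA, a subunit of activin A, stood at -1.10 (0.0631) and the receptor ACVR1 at 0.46 (0.135). List medians were 0.22, 0.16, 0.16, -0.032 and 0.12 in this order, against 0.028 for all genes.

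In milk skin, months 6 and 9 against months 3 and 12 gave 2 calls in these lists, BAMBI and BMP4, where 1.33% of all genes were called. The lists held 28, 20, 11, 14, 19 and 9 tested genes. BAMBI, a kinase-less decoy receptor of the TGF-beta family, had 168 and 307 CPM at months 6 and 9, against 36.9 and 12.9 CPM at months 3 and 12, while cashmere skin had 198 and 221 against 102 and 158 CPM. Its log2 fold change in milk skin was 3.25 ± 0.51 (SE), with an adjusted p of 0.0230 by the edgeR test. BMP4, a ligand of the neighbouring bone morphogenetic protein pathway, had 51.0 and 62.1 CPM against 26.8 and 26.8 CPM in milk skin, with a log2 fold change of 1.08 ± 0.19 and an adjusted p of 0.0365. In milk skin hair shaft and matrix markers were higher in the same direction, and their part in these values was not tested. Without the milk month 9 or the milk month 12 library both calls were lost, with adjusted p of 0.128 and 0.159 for BAMBI and 0.264 and 0.243 for BMP4, and over all alternatives the adjusted p ran from 0.000187 to 0.159 and from 0.0151 to 0.264. The BMP4 call was also lost without the milk month 3 library, without any one of the cashmere month 3, 6 and 9 libraries, and with library totals (adjusted p = 0.154, edgeR).

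Between months, no list gene was called. At month 12 against month 6, 9 of 28 targets were lower and none higher at an unadjusted p under 0.05, among them LOX, an enzyme that cross-links collagen, at a log2 fold change of -1.52, and the collagen chain COL1A1 at -4.26. The background for lower genes was 3.6%. In that contrast 8 of 10 fibroblast markers were lower by the same rule (median -1.07), COL1A1, COL1A2 and COL3A1 belong to both lists, and the part of fibroblasts in the target values was not tested. At month 9 against month 3 the targets went both ways, with 2 of 28 lower, LOX and IGFBP3, and 4 higher: JUNB, a subunit of the AP-1 transcription factor, SMAD7, and the cell cycle inhibitors CDKN1A and CDKN2B. Of all genes, 23.6% had an unadjusted p under 0.05 in that contrast in either direction, and 11.0% on the lower side. In milk skin at months 6 and 9 against 3 and 12, JUNB, SMAD7 and CDKN2B were higher and no target lower by that rule, with 12.2% of all genes in either direction. At month 9 against month 3, 6 of 20 latency and activation genes were lower and none higher by the same rule, with a background of 11.0%. They included LRRC32, a protein that tethers latent TGF-beta to the cell surface, at -1.25, the gelatinase MMP2 at -1.03, and the latent TGF-beta binding proteins LTBP4 and LTBP1 at -1.01 and -0.50. Their adjusted p-values by the edgeR test lay between 0.108 and 0.193.

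The genes whose course over the 8 libraries was most like each of the 6 were taken by Pearson's r of log2 CPM among 10795 genes with a mean of at least 5 CPM. The libraries share depth and cell makeup by breed and month, so r is a description only. TGFBR2 was most like GPM6B (r = 0.997), PREX2 (0.990) and TTC28 (0.983), and TGFBR3 most like GPM6A (0.983), HIP1 (0.979) and IL6ST (0.978). TGFBR2 and TGFBR3 were alike with r = 0.94, and 85 genes were closer to TGFBR2 than TGFBR3 was. TGFBR1 was most like TRAF3 (0.985), ZBTB33 (0.979) and TRIM2 (0.978). TGFB1 was most like GLIPR2 (0.987), CCNK (0.970) and NOL4L (0.964), and TGFB3 most like SOX12 (0.972), ALKBH5 (0.942) and KANK4 (0.933). TGFB2 was most like BUB1B (0.975), MRPL53 (0.975) and METAP1 (0.973), and on log2(FPKM + 1) BUB1B and METAP1 ranked only 445th and 324th. Among the 6, TGFB2 and TGFBR2 ran most against each other (r = -0.61 on log2 CPM and -0.22 on log2 FPKM).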

How the data were processed

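Per the labels, TRIzol RNA from skin was polyA-selected and sequenced as directional paired-end libraries. The submitters' processing notes name Bowtie2, without role or version. No source used here names the genome build. The authors deposited raw read counts for 18815 genes, FPKM for the same genes, and raw counts for a second set of 20780 genes. The first table was used throughout, and TGFB1 to TGFBR3 were matched by symbol, each to 1 row per table.

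The 6 genes, the lists and the tests were chosen with earlier results of these data known. Counts were tested with edgeR 4.0.16 (R 4.3.3) after filterByExpr on breed and TMM scaling, by quasi-likelihood F tests with Benjamini-Hochberg adjustment over 14085 genes and a threshold of 0.05. Month and breed were terms (3 residual degrees of freedom). The 12-month cycle model left 2, and the model of breed by months 6 and 9 or 3 and 12 left 4. The breed and month 9 against 3 fits were also run on simulated counts with 1 dispersion for all genes. That check required only that the median log2 fold change came back near its set value. It therefore does not vouch for the p-values. CPM used TMM factors, and log2 CPM for r a prior count of 2. Reads give counting error only: a count of 0 would allow 3 reads, or 0.231 to 0.395 CPM. Ratios of 1 library to another carry exact binomial 95% intervals. Genes named beside the 6 were those called in each list or its 2 smallest p-values by breed, and the 3 most alike. Genes named for month contrasts, KDR and PECAM1 included, were chosen after their values were seen. Alternatives were DESeq2 1.42.0, limma 3.58.1 on log2 FPKM, other scalings and filters, no month term, the second table (for month contrasts chosen after the tables were seen) and each library left out in turn. One hair marker whose symbol occurs in more than 1 row was left out. The protein sequences of the 6 genes were not used here.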

Additional observations from a re-analysis of the deposited data

Results flagged for a closer look

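Of 24 sets of 4 libraries (6 genes, both breeds, CPM and FPKM), 3 held a library farther from the other months of its breed than the 95% limit of Dixon's test allows, where chance flags about 1 in 20. All 3 concern the cashmere month 3 library. TGFB2 was lowest there, at 62.2 CPM, against 77.5 to 80.4 CPM in the other cashmere libraries. TGFBR3 was highest there, at 283 CPM and 29.5 FPKM, against 128 to 144 CPM and 12.5 to 14.0 FPKM in the other cashmere libraries. In milk skin no library was marked in this way for any of the 6 genes.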

How the results depend on the processing

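All values here are log2 fold changes or counts of genes called at an adjusted p under 0.05, and where a value changed the cause was not tested. The breed fit already pairs the libraries of each month, because month was a term in the model. No other pairing was possible because the labels carry no replicate numbers that tie libraries together. Every breed value of TGFB3, TGFBR2 and TGFBR3 kept its sign in all alternatives except TGFB3 in the second table.

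The median breed value of all genes, 0.028, was 0.14 with library totals and 0.16 and 0.23 with limma, and relative to it TGFB1 stays below 0 in these 3. With library totals the breed value of TGFB1 was 0.041 and its month 9 against 3 value -0.26, the cycle model called 17 genes, and months 6 and 9 against 3 and 12 gave -0.0066 for TGFB3 and -0.048 for TGFBR1 in cashmere skin and -0.0016 and -0.18 in milk skin. The breed difference of that split for TGFBR1, 0.00065, became -0.017 with RLE factors and -0.011 with the stricter filter. Without a filter the cycle model called 118 genes, the split called 1 in cashmere and 416 in milk skin, and its breed difference 41. Without a month term 346 genes were called between the breeds, against 675. In the second table the breed comparison called 1117 genes and 1 of the 6. The breed values there were 0.035 for TGFB1, -0.30 for TGFB2, 0.21 for TGFB3, -0.72 for TGFBR1 and -0.63 for TGFBR2. Month 12 against 6 values of the second table were 0.23 for TGFB2, 0.29 for TGFBR2 and 0.49 for TGFBR1. Its split gave TGFBR1 -0.035 in cashmere and -0.48 in milk skin. DESeq2 called 1712 genes between the breeds, 1107 at month 9 against 3 with 2 of the 6 (TGFBR2 -1.17, TGFBR3 -1.44), and 94 at month 12 against 6. Limma on log2(FPKM + 1) called 1191 genes between the breeds, and with it TGFB1 stood at 0.12 by breed and -0.16 at month 9 against 3. With a pseudocount of 0.1 these were 0.14 and -0.19, and 491 genes were called.

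Leaving out each library in turn gave 0 to 869 genes between the breeds, with at most 4 called when any month 3, 6 or 9 library was left out. The counts were 0 to 2027 at month 9 against 3, 0 to 452 at month 12 against 6, 0 to 1180 for month, 38 to 501 in the cycle model (0 with all libraries), 0 to 274 for the split in milk skin and 0 to 2 for its breed difference. Of the 6 genes, 0 to 2 were called at month 9 against 3 and 0 to 1 for month. The breed value ranged from -0.17 to 0.23 for TGFB2 and from -0.18 to 0.025 for TGFB1. At month 9 against 3 the ranges were -0.14 to 0.26 for TGFB1, -1.99 to -1.05 for TGFBR3, -0.39 to 0.20 for TGFBR1 and -1.48 to -0.93 for TGFBR2. At month 12 against 6 they were -0.72 to 0.13 for TGFB2, -0.81 to 0.073 for TGFBR3, -0.58 to 0.12 for TGFBR1 and -0.41 to 0.035 for TGFBR2. For the split in cashmere skin they were -0.49 to 0.49 for TGFB3, -0.059 to 0.34 for TGFB2, -0.14 to 0.19 for TGFBR1 and -0.72 to 0.16 for TGFBR2. In milk skin they were -0.012 to 0.50 for TGFB3, -0.040 to 0.85 for TGFB1, -1.43 to 0.12 for TGFBR3 and -0.32 to 0.54 for TGFBR1. For its breed difference they were -0.70 to 0.28 for TGFB3, -0.42 to 0.46 for TGFB1, -0.75 to 0.79 for TGFBR3, -0.51 to 0.35 for TGFBR1 and -0.0035 to 0.87 for TGFBR2. TGFB3, with 88 to 250 reads a library, has the widest counting error of the 6.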

Other observations

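Endothelial markers left the smallest variation of TGFBR2 and TGFBR3 when these were divided by a marker sum, but not of the other genes. Dermal papilla markers did so for TGFB1, TGFB2 and TGFBR1: the highest over the lowest library was 1.87 for TGFB1 per dermal papilla sum, against 1.96 for TGFB1 itself, 1.64 against 2.05 for TGFB2, and 1.92 against 2.18 for TGFBR1. For TGFB3 no list left less than its own 1.97, the nearest being macrophage and leukocyte markers with 2.69. The dermal papilla sum was 355 to 435 CPM in cashmere skin and 172 to 451 CPM in milk skin. These comparisons were made after the values were seen and carry no test.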
